A study of Homo sapiens with 47 samples.

Results

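Single HEK293 cells were compared by how much of their RNA was read from 3 mitochondrial tRNA genes. For each of 47 cells, the unique molecular identifiers (UMIs) of MT-TS2, MT-TF and MT-TP were summed and divided by all endogenous UMIs of the cell. The 12 cells with the highest share, called tRNA-high cells here, were set against the 12 with the lowest, called tRNA-low cells. These are 24 of the 47 cells, and the 23 in between belong to neither set. HEK293 is a human cell line made from embryonic kidney by transformation with fragments of adenovirus. All cells carried the same label, were grown in DMEM with glutamine and 10% fetal calf serum, and received no treatment. They were captured on a C1 microfluidic chip with 96 chambers, RNA was primed with oligo-dT, and the end of each cDNA that matches the start of the RNA was tagged and counted. The labels name 1 line and no separate cultures, so each set is cells of 1 sample. No test between the sets was therefore possible, and all differences below are descriptions of these libraries.

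The human mitochondrial genome encodes 22 tRNAs, 2 rRNAs and 13 mRNAs. Both strands are copied into long transcripts in which tRNAs sit between the rRNAs and mRNAs. RNase P cuts such transcripts at the start of a tRNA and ELAC2 cuts at its end, so that excising the tRNAs also frees the RNAs on either side. Most mitochondrial mRNAs and the rRNAs carry short poly(A) tails, while a mature tRNA ends in CCA added after cutting. The table gives only UMIs per gene, so mature tRNAs, tailed tRNAs and uncut transcripts that start in a tRNA cannot be told apart. Mitochondrial genes also have nuclear copies, and how reads with several matches were counted is not given in the sources used here.

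The sequences of the 3 tRNA genes that chose the cells and of 4 others with large differences are shown because the comparison turns on them. They are DNA letters of the tRNA strand from GENCODE 29 (GRCh38), matched by symbol, with the anticodon in capitals. The table was built on hg19, so no coordinates are given. MT-TS2 (serine), MT-TF (phenylalanine) and MT-TH (histidine) lie on the heavy-strand transcript, while MT-TP (proline), MT-TY (tyrosine), MT-TE (glutamate) and MT-TC (cysteine) lie on the light-strand transcript.
MT-TS2: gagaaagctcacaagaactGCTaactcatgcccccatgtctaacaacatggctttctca
MT-TF: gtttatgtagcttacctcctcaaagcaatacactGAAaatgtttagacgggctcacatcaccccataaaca
MT-TP: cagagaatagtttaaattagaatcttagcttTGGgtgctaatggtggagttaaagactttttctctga
MT-TY: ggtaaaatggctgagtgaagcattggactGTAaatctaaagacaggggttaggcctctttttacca
MT-TE: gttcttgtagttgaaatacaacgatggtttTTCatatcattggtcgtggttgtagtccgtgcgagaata
MT-TC: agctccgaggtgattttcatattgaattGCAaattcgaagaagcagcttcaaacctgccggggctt
MT-TH: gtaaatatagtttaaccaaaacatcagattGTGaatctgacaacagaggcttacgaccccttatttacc
The 22 tRNA genes are 59 to 75 bases long, with 23.1% to 49.3% G or C and longest runs of A of 2 to 6 bases.

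The values that chose the cells are given as a description only. The summed share of the 3 tRNAs was 0.298% of endogenous UMIs in the lowest tRNA-high cell (cell 17), with a median of 0.516% and 1.21% in the highest (cell 55). Among tRNA-low cells it was 0.0205% in the lowest (cell 23), with a median of 0.0796% and 0.108% in the highest (cell 48). Cells in neither set had a median of 0.177%. The last cell taken as high, cell 17, had 0.298%, and the first one left out, cell 50, had 0.292%. The last cell taken as low, cell 48, had 0.108%, and the first one left out, cell 15, had 0.111%. In UMIs, a tRNA-high cell had 125 to 730 and a tRNA-low cell 6 to 99, so counting error is large in the low cells. Levels of single genes are given below as UMIs per 100000 endogenous UMIs of a cell.

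**Figure D1:**
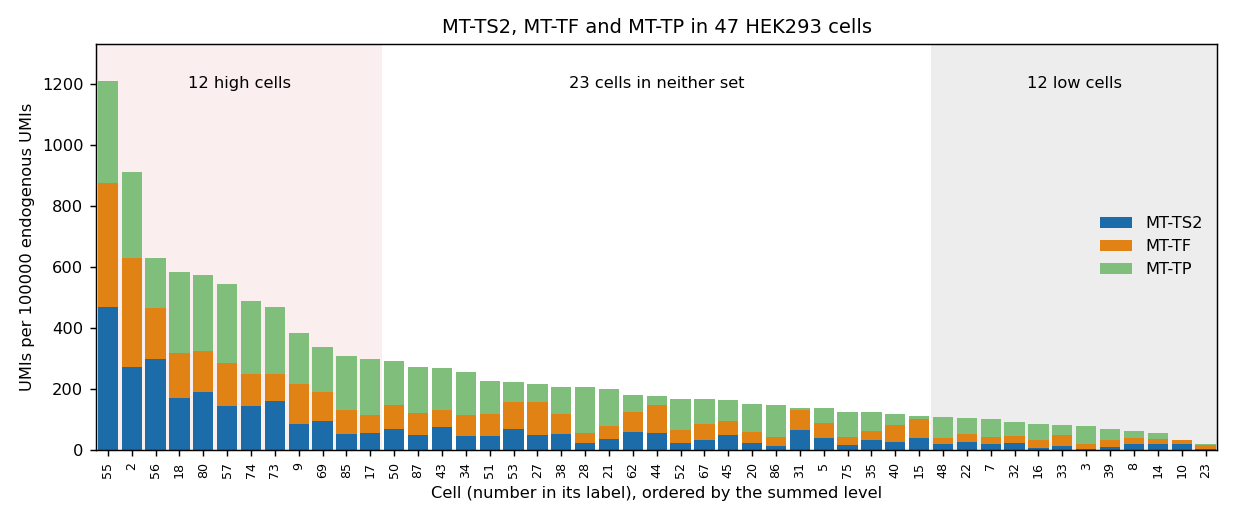
Stacked bars show MT-TS2, MT-TF and MT-TP in UMIs per 100000 endogenous UMIs for each of the 47 cells, ordered by the sum, with the 12 tRNA-high cells at the left and the 12 tRNA-low cells at the right. Cell 55 at the left end has a summed share of 1.21% and cell 23 at the right end has 0.0205%, and the boundary cells of each set stand close to their neighbours.

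MT-TS2, the tRNA for the serine codons AGU and AGC, reached 50.9, 152 and 469 UMIs per 100000 in the lowest, median and highest tRNA-high cell, and 1.80, 18.0 and 26.7 in the tRNA-low cells. MT-TF, the phenylalanine tRNA at the head of the heavy-strand transcript, reached 59.6, 133 and 406 in tRNA-high cells, and 12.3, 20.8 and 37.7 in tRNA-low cells. MT-TP, the proline tRNA next to the control region, reached 145, 230 and 335 in tRNA-high cells, and 0, 41.8 and 71.2 in tRNA-low cells. The sets were apart for each of the 3, which the way of choosing them favours. Spearman's rho between MT-TS2 and MT-TF was 0.92 over 47 cells, and MT-TP had rho of 0.68 to MT-TS2 and 0.69 to MT-TF. Over the 23 cells in neither set these were 0.77, -0.08 and -0.12 in the same order. The choice holds those 23 cells to a narrow range of the summed share. These values describe the rows that chose the cells. All these cells share 1 run, and each pair of measures shares the total of its cell.

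The sets overlapped in depth, but the lowest choosing shares lay in shallow cells. Endogenous UMIs ran from 38272 to 88466 in tRNA-high cells, with a median of 64013. In tRNA-low cells they ran from 29325 to 95936, with a median of 54884.5. Cells 8, 14, 10 and 23, ranked 44 to 47 from the highest share, had 35675, 34030, 32527 and 29325, fewer than any tRNA-high cell. Their spike-in UMIs, 2631, 2665, 2971 and 2655, were also under the lowest tRNA-high value of 3059. The part of depth in the result was not tested. Spike-in UMIs had medians of 3629.5 in tRNA-high and 3319.5 in tRNA-low cells, and endogenous UMIs per spike-in UMI had medians of 18.1 in tRNA-high and 17.3 in tRNA-low cells. After thinning each cell to 29325 UMIs, genes with a UMI numbered 5186.5 at the median in tRNA-high cells and 5087.5 in tRNA-low cells. Cell 52, whose mitochondrial share stands apart in this series at 18.7% of its UMIs, is in neither set. The numbers in the cell labels were unevenly placed: 8 of 12 tRNA-high cells and none of 12 tRNA-low cells had a number above 48. The labels do not say what the number stands for, and its part in the result was not tested. Within cells numbered up to 48, 4 tRNA-high cells can be set against all 12 tRNA-low cells, and those values stand beside some of the results. Numbers above 48 give no value, since no tRNA-low cell has one.

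The other mitochondrial tRNAs were higher in the cells chosen by MT-TS2, MT-TF and MT-TP. Summed over the 19 other tRNA genes, tRNA-high cells had 842 UMIs or 0.114% of their total, and tRNA-low cells had 168 UMIs or 0.0239%. The ratio of the summed shares was 4.78, with an exact 95% interval of 4.04 to 5.67. All intervals of ratios here are exact conditional binomial intervals and cover counting error only, not the spread between cells. Cell by cell, the share was 0.0591%, 0.101% and 0.210% in the lowest, median and highest tRNA-high cell, against 0.0111%, 0.0283% and 0.0343% in tRNA-low cells. Every one of the 12 tRNA-high cells was above every tRNA-low cell. Over the 23 cells in neither set the share ran from 0.0230% to 0.0603%, and rho to the share of the 3 choosing tRNAs was 0.60, with 0.86 over 47 cells. Within label numbers up to 48, the 4 tRNA-high cells had 0.0691% to 0.210%, also above all 12 tRNA-low cells. Counted per 1000 spike-in UMIs instead of per endogenous UMI, the 19 tRNAs stood at 7.83, 18.6 and 39.3 in tRNA-high cells and at 1.68, 4.34 and 6.48 in tRNA-low cells.

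A gene was called measured with at least 100 UMIs over all 47 cells, and called higher or lower with a ratio of summed shares of at least 1.5 or at most 1/1.5. Apart from the 3 choosing tRNAs, 3682 genes were measured, of which 306 (8.31%) were higher and 290 (7.88%) lower in tRNA-high cells. No measured gene kept the sets wholly apart cell by cell in either direction (0% of 3682). Of the 19 other tRNAs, 6 were measured and all 6 were higher. Since a gene reaches 100 UMIs more easily if it is abundant in 1 of the sets, that count over 6 of 19 is a description and not support.

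MT-TY, which reads tyrosine codons, had the highest ratio of the 6, with 130 UMIs in tRNA-high and 12 in tRNA-low cells, a ratio of 10.3 (interval 5.71 to 20.5). Its level was 4.77, 14.8 and 40.8 per 100000 in the lowest, median and highest tRNA-high cell and 0, 1.45 and 5.88 in tRNA-low cells, so that 11 of 12 tRNA-high cells were above all tRNA-low cells. MT-TM, which serves both initiation and elongation at methionine codons, had 121 UMIs in tRNA-high and 18 in tRNA-low cells, a ratio of 6.40 (3.89 to 11.2). MT-TE, the glutamate tRNA, had 173 UMIs in tRNA-high and 26 in tRNA-low cells, with levels of 9.04, 23.6 and 45.1 per 100000 in tRNA-high and 0, 1.87 and 13.6 in tRNA-low cells. Its ratio was 6.34 (4.18 to 9.98), and 8 of 12 tRNA-high cells were above all tRNA-low cells. MT-TC, the cysteine tRNA, had 125 UMIs in tRNA-high and 23 in tRNA-low cells, a ratio of 5.18 (3.30 to 8.47). The smallest ratios of the 6 belonged to the tRNAs on either side of MT-RNR2. MT-TL1, a leucine tRNA that follows MT-RNR2, had 48 UMIs in tRNA-high and 21 in tRNA-low cells, a ratio of 2.18 (1.28 to 3.83). MT-TV, the valine tRNA between MT-RNR1 and MT-RNR2, had 43 in tRNA-high and 21 in tRNA-low cells, a ratio of 1.95 (1.13 to 3.46).

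Among the 13 tRNAs with fewer than 100 UMIs, MT-TA, the alanine tRNA, had none in any cell, 10 had a higher summed share in tRNA-high cells and 2 did not. Of all 3682 measured genes, which have more UMIs, 1754 had a higher summed share in tRNA-high cells. MT-TH, the histidine tRNA that directly precedes MT-TS2, had 58 UMIs in tRNA-high and 3 in tRNA-low cells, a ratio of 18.4 (6.00 to 91.9), and was found in 11 tRNA-high and 3 tRNA-low cells. MT-TL2, the leucine tRNA that follows MT-TS2, had 22 UMIs in tRNA-high and 8 in tRNA-low cells, a ratio of 2.62 (1.12 to 6.81). MT-TR, the arginine tRNA, had 30 in tRNA-high and 5 in tRNA-low cells, a ratio of 5.72 (2.20 to 18.9), which became 8.64 without cell 32 and 8.82 without cell 22, both tRNA-low. MT-TT, the threonine tRNA next to MT-TP on the opposite strand, had 18 UMIs in tRNA-high and 6 in tRNA-low cells, a ratio of 2.86 (1.09 to 8.80) that was 4.98 without the tRNA-low cell 48. MT-TG, for glycine, had 22 in tRNA-high and 8 in tRNA-low cells, a ratio of 2.62. MT-TS1, the serine tRNA of the light-strand transcript, had 12 in tRNA-high and 5 in tRNA-low cells, a ratio of 2.29 whose interval of 0.75 to 8.29 includes 1, and which became 1.52 without the tRNA-high cell 9 and 3.45 without the tRNA-low cell 32.

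MT-TI, the isoleucine tRNA, had 21 UMIs in 9 tRNA-high cells and 0 in tRNA-low cells. Against the floor of 3 counts over the 12 tRNA-low cells, which is 0.000426% of their UMIs, it was at least 6.67-fold higher. MT-TD had 5 UMIs in tRNA-high and 0 in tRNA-low cells and MT-TQ 4 in tRNA-high and 0 in tRNA-low cells, and the lower bounds of their intervals, 0.87 and 0.63, lie under 1. MT-TN had 2 UMIs in tRNA-high and 1 in tRNA-low cells. The 2 tRNAs that did not have a higher summed share were MT-TK, the lysine tRNA, with 8 UMIs in tRNA-high and 10 in tRNA-low cells (ratio 0.76, 0.26 to 2.14, and 0.51 without the tRNA-high cell 73), and MT-TW, with 0 in tRNA-high and 1 in tRNA-low cells. At 18 UMIs over both sets, a difference for MT-TK of the size seen for MT-TY would lie outside its interval, while MT-TD, MT-TQ, MT-TN and MT-TW allow no statement.

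tRNAs of both strands were higher in tRNA-high cells. The 12 other tRNAs of the heavy-strand transcript summed to 396 UMIs in tRNA-high and 101 in tRNA-low cells, a ratio of 3.74 (3.00 to 4.70), and 8 of 12 tRNA-high cells were above all tRNA-low cells. The 7 others of the light-strand transcript summed to 446 in tRNA-high and 67 in tRNA-low cells, a ratio of 6.34 (4.90 to 8.33), and all 12 tRNA-high cells were above all tRNA-low cells. In single cells rho between the 2 sums was 0.33 over 47 cells, and it turned to -0.52 over the 23 cells in neither set, which the choice holds to a narrow range of the choosing share.

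**Figure D2:**
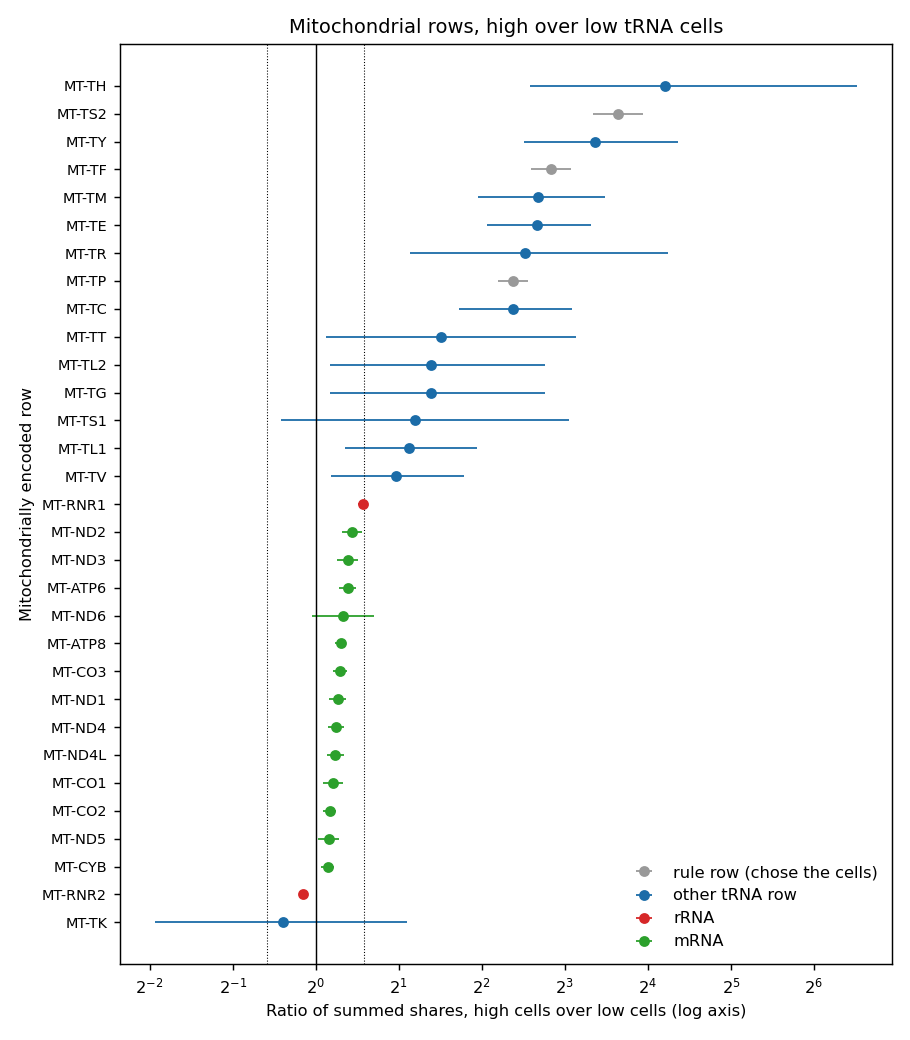
Points show the ratio of summed shares, tRNA-high over tRNA-low cells, on a log axis, for mitochondrial genes with UMIs in both sets. MT-TN, with 2 UMIs in tRNA-high and 1 in tRNA-low cells, is left out. Lines are exact 95% intervals covering counting error only. The 3 choosing tRNAs are grey. The tRNAs spread from MT-TH at 18.4 down to MT-TK at 0.76, while the mRNAs lie between 1.10 and 1.35, MT-RNR1 at 1.48 and MT-RNR2 at 0.90; dotted lines mark 1.5 and 1/1.5.

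The 2 rRNAs stayed inside the fold of 1.5 and differed from each other in direction. MT-RNR1, the RNA of the small mitochondrial ribosomal subunit and the gene after MT-TF, had 7502 UMIs in tRNA-high and 4833 in tRNA-low cells, a ratio of 1.48 (1.43 to 1.53). Its level was 512, 989 and 1898 per 100000 in tRNA-high cells and 333, 661 and 939 in tRNA-low cells, with 6 of 12 tRNA-high cells above all tRNA-low cells. MT-RNR2, the RNA of the large subunit, had 7922 UMIs in tRNA-high and 8357 in tRNA-low cells, a ratio of 0.903 (0.876 to 0.931). Its levels overlapped widely, at 663, 1109 and 1778 per 100000 in tRNA-high and 642, 1333 and 1832 in tRNA-low cells. The shallow tRNA-low cells 8, 14, 10 and 23 had the highest MT-RNR2 levels of their set, at 1497, 1651, 1832 and 1664. The part of depth in the lower MT-RNR2 of tRNA-high cells was not tested. MT-RNR1 was close to the fold and passed it with TMM or DESeq2 scaling (log2 ratio 0.60 each) and with 8 cells on each side (0.69), among others. The 2 rRNAs together took 2.09% of UMIs in tRNA-high and 1.87% in tRNA-low cells, a ratio of 1.11 (1.09 to 1.14). That direction turned when cells were ranked by choosing-tRNA UMIs per spike-in UMI, which changes some members of both sets: the log2 ratio of the summed rRNAs was then -0.18, with 0.18 for MT-RNR1 and -0.44 for MT-RNR2.

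The balance of the 2 rRNAs within a cell differed between the sets. tRNA-high cells had 0.947 UMIs of MT-RNR1 per UMI of MT-RNR2 over their sums, and tRNA-low cells 0.578. In single cells the ratio was 0.675, 0.932 and 1.08 at the lowest, median and highest in tRNA-high cells, against 0.309, 0.547 and 1.02 in tRNA-low cells. Of the 12 tRNA-high cells, 4 were above all tRNA-low cells and 10 were above the 11 tRNA-low cells other than cell 39, which had 1.02. The next tRNA-low cell, cell 16, had 0.777. The ratio is not divided by the total of a cell, but depth may still differ with it. The shallow tRNA-low cells 8, 14, 10 and 23 had 0.309, 0.541, 0.383 and 0.342. The deepest tRNA-low cells, 39, 48 and 33, had 1.02, 0.590 and 0.553. The part of depth in the ratio was not tested. The rho of the ratio to the share of the 3 choosing tRNAs was 0.68 over 47 cells and 0.39 over the 23 cells in neither set. The 4 tRNA-high cells with label numbers up to 48 had 0.849 to 1.08.

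Mitochondrial mRNAs were slightly higher in tRNA-high cells, and none of the 13 passed the fold of 1.5. They took 3.36% of UMIs in tRNA-high and 2.81% in tRNA-low cells, a ratio of 1.197 (1.18 to 1.22). The cells overlapped, with 2.28%, 3.25% and 4.74% in tRNA-high against 2.21%, 2.90% and 3.96% in tRNA-low cells, and rho to the choosing tRNAs was 0.22 over 47 cells. All 13 mRNAs had a ratio above 1, where 1754 of all 3682 measured genes did. The 13 come from shared long transcripts and are not 13 separate observations. MT-ND2, a complex I subunit, had the highest, with 1451 UMIs in tRNA-high and 1021 in tRNA-low cells, a ratio of 1.35 (1.25 to 1.47). MT-CYB, the cytochrome of complex III, had the lowest, with 2773 in tRNA-high and 2392 in tRNA-low cells, a ratio of 1.10 (1.05 to 1.17). MT-CO1, a catalytic subunit of complex IV, had 1192 in tRNA-high and 983 in tRNA-low cells, a ratio of 1.16 (1.06 to 1.26). MT-ND6, the complex I subunit on the light-strand transcript, had 141 UMIs in tRNA-high and 107 in tRNA-low cells, a ratio of 1.26 (0.97 to 1.63), while the light-strand tRNAs stood at 6.34. The reading frames of MT-ATP8 and MT-ATP6 share bases, as do those of MT-ND4L and MT-ND4, which leaves the split of their UMIs uncertain. Ranking cells by choosing-tRNA UMIs per spike-in UMI turned the direction of the summed mRNAs, to a log2 ratio of -0.051, where it was 0.26 otherwise.

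**Figure D3:**
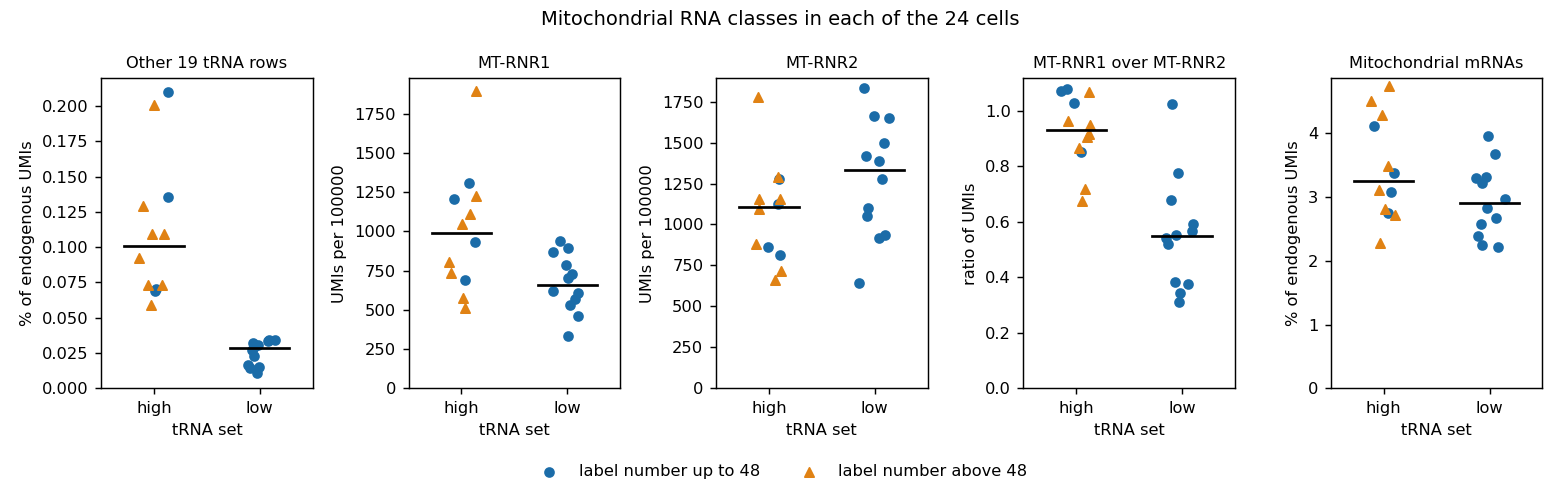
Each point is 1 cell, with the 12 tRNA-high cells left and the 12 tRNA-low cells right in every panel; shapes show whether the label number is above 48, and bars are medians. Shares of the 19 other tRNAs lie at 0.0591% to 0.210% in tRNA-high and 0.0111% to 0.0343% in tRNA-low cells without overlap, MT-RNR1 over MT-RNR2 has medians of 0.932 in tRNA-high and 0.547 in tRNA-low cells, and the mRNA shares overlap.

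All mitochondrial genes together took 4.27%, 5.96% and 9.59% of UMIs in tRNA-high cells and 3.68%, 5.08% and 6.25% in tRNA-low cells. The 3 choosing tRNAs made up 4.75%, 8.09% and 14.8% of these mitochondrial UMIs in tRNA-high cells and 0.327%, 1.65% and 2.79% in tRNA-low cells, a gap that the choice of cells by these tRNAs favours. Spike-in RNAs were compared as shares of all spike-in UMIs of a set, a denominator that holds their typical ratio near even. Of 34 with at least 100 UMIs, none was higher and 2 were lower by the fold, and the median log2 ratio was 0.00. These ratios are not on the scale of the gene ratios, which use endogenous UMIs.

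Nuclear genes that act on mitochondrial RNA showed no shared direction. Of 34 listed factors of mitochondrial RNA processing and decay, 17 were measured, with 3 higher and 3 lower, against 8.31% and 7.88% of all measured genes. The list took 0.317% of UMIs in tRNA-high and 0.287% in tRNA-low cells, a ratio of 1.11 (1.04 to 1.17), and the cells overlapped. TRMT10C, a subunit of mitochondrial RNase P, had 315 UMIs in tRNA-high and 200 in tRNA-low cells and a ratio of 1.501 (1.25 to 1.80). Its level was 14.6, 45.7 and 70.9 per 100000 in tRNA-high and 8.98, 27.4 and 39.9 in tRNA-low cells, with 7 of 12 tRNA-high cells above all tRNA-low cells, and leaving out any of 13 single cells took the ratio under 1.5, to 1.40 at the lowest. HSD17B10, which forms a complex with TRMT10C, had 189 in tRNA-high and 178 in tRNA-low cells, a ratio of 1.01 (0.82 to 1.25). ELAC2, the enzyme that cuts the end of tRNAs, had few UMIs, 14 in tRNA-high and 33 in tRNA-low cells, a ratio of 0.40 (0.20 to 0.78). LRPPRC, which stabilises mitochondrial mRNAs, had 102 UMIs in tRNA-high and 50 in tRNA-low cells, a ratio of 1.94 (1.37 to 2.78), and SLIRP, its partner, had 941 in tRNA-high and 855 in tRNA-low cells, a ratio of 1.05 (0.95 to 1.15). The other 3 past the fold, named after their values were seen, were the RNA-binding proteins FASTKD1 (38 in tRNA-high and 22 in tRNA-low cells) and FASTKD2 (19 in tRNA-high and 34 in tRNA-low cells) and the tRNA-modifying enzyme TRMU (24 in tRNA-high and 37 in tRNA-low cells). Their ratios of 1.65, 0.53 and 0.62 were inside the fold without cell 56 or 18 for FASTKD1 (1.38 and 1.39), without cell 3 for FASTKD2 (0.76) and without cell 55, 56 or 8 for TRMU (0.67 to 0.68).

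Factors of mitochondrial transcription and DNA upkeep had 22 listed and 10 measured members, with none higher and 2 lower, where 8.31% and 7.88% of all measured genes were. Their median log2 ratio was -0.32, beside -0.02 for all measured genes, and their summed share was 0.220% in tRNA-high and 0.249% in tRNA-low cells, a ratio of 0.88 (0.83 to 0.95). TFAM, which packages mitochondrial DNA and starts its transcription, was 1 of the 2, named after its values were seen. It had 112 UMIs in tRNA-high and 182 in tRNA-low cells, a ratio of 0.59 (0.46 to 0.75). Its levels overlapped, at 1.70, 17.5 and 23.4 per 100000 in tRNA-high and 0, 25.2 and 53.3 in tRNA-low cells, and its rho to the choosing tRNAs was -0.23 over 47 cells and 0.10 over the 23 in neither set. RNASEH1, which removes RNA from RNA-DNA hybrids, had 23 in tRNA-high and 38 in tRNA-low cells, a ratio of 0.58 (0.33 to 0.99). SSBP1, the single-stranded DNA-binding protein, had 705 in tRNA-high and 688 in tRNA-low cells, a ratio of 0.98.

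Lists of nuclear genes for mitochondrial translation, oxidative phosphorylation and mitochondrial import differed by little in summed share between the sets. The counts past the fold given here stand beside 8.31% higher and 7.88% lower among all measured genes. These shares fall with depth: with a minimum of 500 UMIs, 8 of 870 genes were higher and 8 lower. A list of well counted genes with few or none past the fold is therefore not unusual. The list of mitochondrial aminoacyl-tRNA synthetases, which load tRNAs with amino acids, had 22 listed and 10 measured members. It also holds GATC, an amidotransferase subunit, and its best counted members, KARS and GARS, encode the cytosolic enzymes too. None was higher or lower by the fold. The summed share of the list was 0.0774% in tRNA-high and 0.0798% in tRNA-low cells, a ratio of 0.97 (0.86 to 1.09). Its members ran from TARS2 at 1.39 (38 UMIs in tRNA-high and 26 in tRNA-low cells) to GATC at 0.71 (36 in tRNA-high and 48 in tRNA-low cells). Mitochondrial ribosomal proteins had 72 of 74 listed members measured, with 1 higher and 4 lower. They took 1.41% of UMIs in tRNA-high and 1.48% in tRNA-low cells, a ratio of 0.96 (0.93 to 0.98). Cell by cell, 6 of 12 tRNA-high cells were below all tRNA-low cells. MRPS12 had 159 UMIs in tRNA-high and 95 in tRNA-low cells, a ratio of 1.59 that was 1.498 without the tRNA-low cell 48, and MRPS11 had 62 in tRNA-high and 124 in tRNA-low cells, a ratio of 0.48 (0.35 to 0.65). Nuclear genes of oxidative phosphorylation had 71 of 74 measured, none past the fold in either direction, with 4.71% of UMIs in tRNA-high and 4.76% in tRNA-low cells. Their members ran from CYCS, cytochrome c, at 0.77 (412 UMIs in tRNA-high and 512 in tRNA-low cells) to the complex I subunit NDUFS6 at 1.37 (313 in tRNA-high and 218 in tRNA-low cells). Of 18 measured import genes, TIMM17B, part of the inner membrane channel, was higher with 197 UMIs in tRNA-high and 110 in tRNA-low cells (ratio 1.71, 1.34 to 2.17), and 8 of 12 tRNA-high cells were above all tRNA-low cells. TIMM44 was lower with 84 in tRNA-high and 125 in tRNA-low cells (ratio 0.64, 0.48 to 0.85), and its ratio was just inside the fold, at 0.67 to 0.68, without any of cells 80, 9, 14 or 3.

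**Figure D4:**
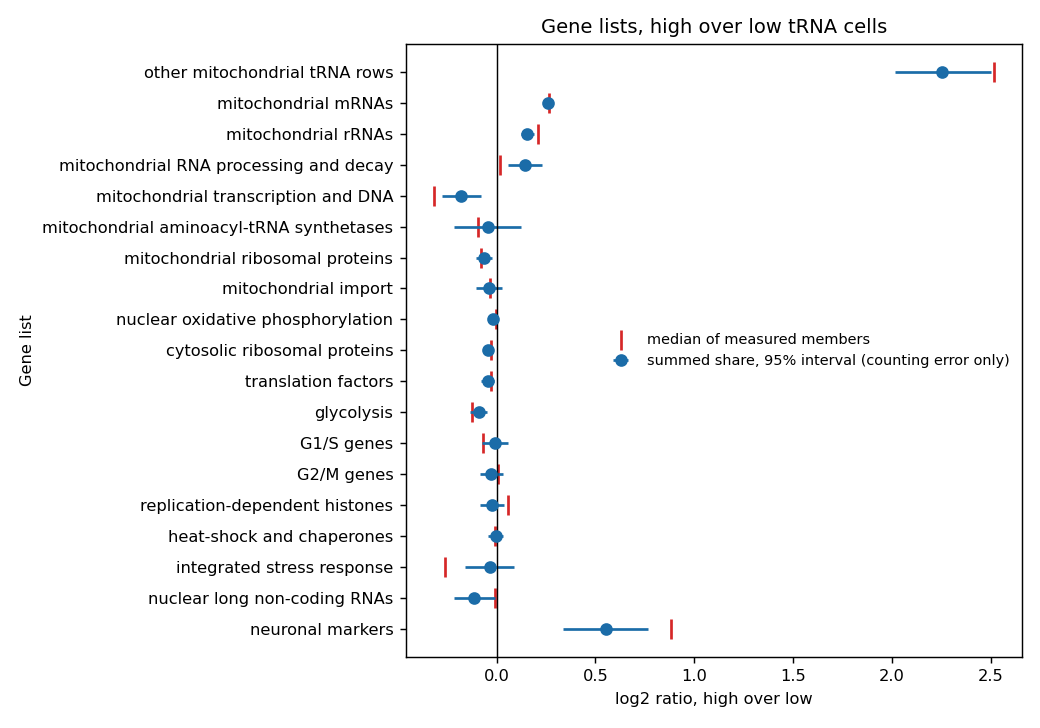
Points show the log2 ratio of summed shares, tRNA-high over tRNA-low cells, for each gene list, with exact 95% intervals covering counting error only, and red ticks show the median over the measured members. The other tRNAs stand at 2.26 and mitochondrial mRNAs at 0.26; mitochondrial transcription and DNA stands at -0.18, and the neuronal list, with 3 measured members, at 0.55.

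The summed shares of ribosomal protein, cell cycle and histone genes lay close together in the 2 sets. Of 76 measured cytosolic ribosomal protein genes, whose family has many near-identical pseudogene copies, none passed the fold, and they took 25.8% of UMIs in tRNA-high and 26.5% in tRNA-low cells. None of 31 measured translation factors passed it. As given above, genes with many UMIs seldom passed the fold. Genes of the G1/S stage, when DNA replication begins, had 39 measured members with 2 higher and 1 lower, beside 8.31% and 7.88% of all measured genes, and shares of 0.538% in tRNA-high and 0.541% in tRNA-low cells. Genes of the G2/M stage, around mitosis, had 40 measured with 1 higher and 3 lower, and shares of 0.631% in tRNA-high and 0.642% in tRNA-low cells. Replication-dependent histones took 0.629% in tRNA-high and 0.638% in tRNA-low cells, and HIST1H4C, the histone H4 gene that dominates them, had wide ranges in both sets, at 90.5 to 1089 per 100000 in tRNA-high and 93.0 to 1629 in tRNA-low cells. Glycolysis genes had 12 measured with 1 higher and 1 lower, and the same 8.31% and 7.88% stand beside this count and those that follow. Past the fold in this list were the phosphofructokinase genes PFKL and PFKP. PFKL had 43 UMIs in tRNA-high and 20 in tRNA-low cells, and PFKP had 19 in tRNA-high and 38 in tRNA-low cells. The PFKL ratio of 2.05 was 1.24 without the tRNA-high cell 9 and 3.16 without the tRNA-low cell 22. Of 29 measured chaperones only the small heat-shock protein gene HSPB1 passed, with 265 in tRNA-high and 162 in tRNA-low cells and a ratio of 1.56 (1.28 to 1.91), which was 1.43 to 1.497 without any of cells 55, 56, 73, 16 or 7. Of 6 measured nuclear long non-coding RNAs 1 was lower, JPX, with 56 in tRNA-high and 96 in tRNA-low cells, while MALAT1 had 874 UMIs in tRNA-high and 953 in tRNA-low cells and overlapping cells.

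Of 13 measured genes of the integrated stress response, the pathway that acts through the transcription factor ATF4, 2 were higher and 2 lower, beside 8.31% and 7.88% of all measured genes. HERPUD1, a protein of degradation at the endoplasmic reticulum, had 96 UMIs in tRNA-high and 38 in tRNA-low cells, a ratio of 2.41 (1.64 to 3.60). Its levels were 1.70, 12.2 and 27.7 per 100000 in tRNA-high and 0, 5.08 and 12.9 in tRNA-low cells. The transcription factor XBP1, named after its values were seen, had 85 in tRNA-high and 51 in tRNA-low cells, a ratio of 1.59 (1.11 to 2.29) that was 1.41 to 1.497 without any of cells 80, 73, 33, 7 or 22. ATF4 itself had 245 in tRNA-high and 204 in tRNA-low cells, a ratio of 1.14 (0.95 to 1.38). PHGDH, also named afterwards, and ASNS, enzymes of serine and asparagine synthesis, had 59 in tRNA-high and 91 in tRNA-low cells and 19 UMIs in tRNA-high and 32 in tRNA-low cells, and the ASNS ratio of 0.57 was 0.80 without the tRNA-low cell 22, without which the PHGDH ratio of 0.62 was 0.68; without the tRNA-low cell 39 it was 0.70.

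Across all 3661 measured nuclear genes, 300 (8.19%) were higher and 290 (7.92%) lower, close to even, and the median log2 ratio of all measured genes was -0.02. With 100 to 200 UMIs spread over 47 cells, a ratio of 1.5 is often within counting error. Only 15 nuclear genes had an interval wholly above 1.5 and 13 had one wholly below 1/1.5. GNL3L, a nucleolar GTP-binding protein, had the highest nuclear ratio, with 56 UMIs in tRNA-high and 11 in tRNA-low cells, a ratio of 4.85 (2.51 to 10.3), of which cell 57 held 33.9% of the tRNA-high UMIs. OPA1, the GTPase that fuses mitochondrial inner membranes, had 45 in tRNA-high and 11 in tRNA-low cells, a ratio of 3.90 (1.98 to 8.36) that was 2.58 without cell 57. MTFR1L, a regulator of mitochondrial shape, had 34 in tRNA-high and 9 in tRNA-low cells, a ratio of 3.60 (1.69 to 8.53), and no single tRNA-high cell held more than 17.6% of its tRNA-high UMIs. NFYB, a subunit of the CCAAT-binding factor, had 39 in tRNA-high and 11 in tRNA-low cells and ACTR6, a chromatin-remodelling subunit, had 42 in tRNA-high and 12 in tRNA-low cells. The immediate-early factor FOSB had 48 in tRNA-high and 15 in tRNA-low cells, a ratio of 3.05 that was 5.64 without the tRNA-low cell 39, and the stress gene GADD45B had 78 in tRNA-high and 31 in tRNA-low cells. The origin subunit ORC3, the centriolar protein CCDC14 and the ubiquitin ligase RNF26 had ratios of 2.61, 2.57 and 2.56. NEFL, the light neurofilament chain, had 52 UMIs in tRNA-high and 15 in tRNA-low cells, a ratio of 3.30 that was 2.17 without the tRNA-high cell 2 and 5.08 without the tRNA-low cell 7.

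Among the lowest ratios, KIAA0368, a proteasome-associated gene, had 12 UMIs in tRNA-high and 40 in tRNA-low cells, a ratio of 0.29 (0.14 to 0.56), which was 0.18 without cell 74. NUBP1, which assembles iron-sulfur clusters, had 10 in tRNA-high and 33 in tRNA-low cells, a ratio of 0.29 (0.13 to 0.60). NGRN, a mitochondrial protein needed for the large rRNA, had 15 in tRNA-high and 49 in tRNA-low cells, a ratio of 0.29 (0.15 to 0.53), and was found in 8 tRNA-high and all 12 tRNA-low cells. CEP57, a centrosomal protein, had 13 in tRNA-high and 42 in tRNA-low cells, and LINC00467, a long non-coding RNA, 13 in tRNA-high and 37 in tRNA-low cells. NRN1 had 19 in tRNA-high and 55 in tRNA-low cells. NECAP2 had 18 in tRNA-high and 47 in tRNA-low cells and SEPHS1 17 in tRNA-high and 46 in tRNA-low cells. TESC had 17 in tRNA-high and 44 in tRNA-low cells, a ratio of 0.37 that was 0.24 without the tRNA-high cell 57. The best counted of these genes was CD320, the receptor for vitamin B12 bound to transcobalamin, with 73 in tRNA-high and 162 in tRNA-low cells and a ratio of 0.43 (0.32 to 0.57). Its levels overlapped, at 4.98, 9.10 and 18.7 per 100000 in tRNA-high and 5.72, 20.8 and 35.5 in tRNA-low cells. SSNA1, a microtubule-binding protein, had 41 in tRNA-high and 88 in tRNA-low cells, and GYG1, the primer of glycogen synthesis, 43 in tRNA-high and 91 in tRNA-low cells.

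**Figure D5:**
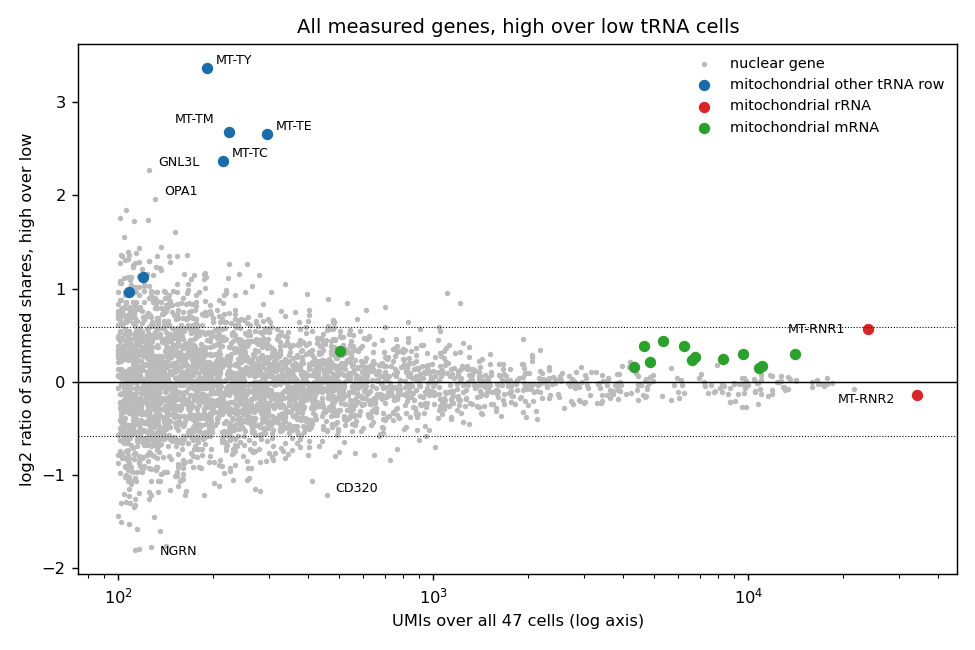
Each point is a measured gene, with its UMIs over all 47 cells on a log axis and the log2 ratio of summed shares, tRNA-high over tRNA-low cells, on the vertical axis; coloured points are mitochondrial genes other than the 3 choosing tRNAs. MT-TY, MT-TM, MT-TE and MT-TC lie above all nuclear genes, GNL3L and OPA1 are the highest nuclear genes, and the spread narrows with depth, with MT-RNR1 at 0.56 standing out among the deepest.

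Nuclear genes were also ranked by Spearman's rho between their level and the share of the choosing tRNAs over all 47 cells in place of the 2 sets. The 5 highest were BLOC1S4, a subunit of a lysosome biogenesis complex, at 0.57, the histone chaperone subunit SUPT16H and the RNA-binding protein STAU1, both at 0.48, and the translation release factor GSPT1 and the splicing factor HNRNPR, both at 0.47. Over the 23 cells in neither set these 5 had rho of 0.37, 0.63, 0.19, -0.01 and 0.34 in the same order. HNRNPR, the best counted, had 303 UMIs in tRNA-high and 198 in tRNA-low cells, a ratio of 1.46 (1.21 to 1.75), with 7 of 12 tRNA-high cells above all tRNA-low cells. Depth tracked the choosing tRNAs weakly, with rho of 0.15 for endogenous and 0.27 for spike-in UMIs, and the label number had rho of 0.44, over the same 47 cells.

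Nuclear-encoded small RNAs, taken by the GENCODE 29 type of each symbol after the tRNA values had been seen, differed far less than the mitochondrial tRNAs. The 270 rows of 7 small RNA types summed to 875 UMIs in tRNA-high and 714 in tRNA-low cells, a ratio of 1.17 (1.06 to 1.29), and rho to the choosing tRNAs was 0.16 over 47 cells. Rows of the snRNA type, which takes in RNAs of the spliceosome and RN7SK, summed to 224 UMIs in tRNA-high and 111 in tRNA-low cells. Their ratio was 1.92 (1.52 to 2.44), with 7 of 12 tRNA-high cells above all tRNA-low cells. Within label numbers up to 48, the tRNA-high cells 2, 9, 17 and 18 had snRNA shares of 0.0364%, 0.0317%, 0.0143% and 0.0101%. The 12 tRNA-low cells ran from 0.00922% to 0.0280%, so cells 17 and 18 lay within their range. Of 31 small RNA rows with at least 10 UMIs in the 24 cells, 14 were higher and 5 lower by a fold of 1.5, where 20.3% and 16.9% of all 9046 rows with that many UMIs were. RPPH1, the RNA of nuclear RNase P, had 25 UMIs in tRNA-high and 6 in tRNA-low cells, a ratio of 3.97 (1.59 to 11.8) that was 2.45 without the tRNA-high cell 57 and 6.86 without the tRNA-low cell 39. RN7SK, which holds back the elongation factor P-TEFb and is part of the snRNA sum, had 65 in tRNA-high and 37 in tRNA-low cells. Its ratio was 1.67 (1.10 to 2.58), and 1.49 without the tRNA-low cell 39. RN7SL1 and RN7SL2, the RNAs of the signal recognition particle, had 63 in tRNA-high and 86 in tRNA-low cells and 166 in tRNA-high and 205 in tRNA-low cells, ratios of 0.70 and 0.77. The Cajal body RNAs SCARNA13, SCARNA14 and SCARNA8 had 10 in tRNA-high and 1 in tRNA-low cells, 24 in tRNA-high and 7 in tRNA-low cells and 14 in tRNA-high and 2 in tRNA-low cells, while SCARNA22 had 74 in tRNA-high and 75 in tRNA-low cells. With so few UMIs single cells weigh much: the SCARNA13 ratio of 9.53 was 6.06 without the tRNA-high cell 17, the SCARNA14 ratio of 3.27 was 6.64 without the tRNA-low cell 33, and the SCARNA8 ratio of 6.67 was 4.23 without the tRNA-high cell 69 and 11.6 without the tRNA-low cell 33 or 48. SNORA84, a guide RNA for rRNA modification, had 0 in tRNA-high and 10 in tRNA-low cells, and RNY4 had 11 in tRNA-high and 0 in tRNA-low cells, all in 1 cell. Such RNAs have many near-identical copies in the genome, so the split of reads among them is uncertain.

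Markers of other cell types were rare in both sets. Of 12 kidney epithelium markers 6 had a row with UMIs, summing to 24 UMIs in tRNA-high and 18 in tRNA-low cells, and the other 6 had no UMI or no row. Fibroblast markers summed to 2 UMIs in each set, and blood and immune markers to 4 in tRNA-high and 5 in tRNA-low cells. Neuronal markers, which HEK293 cells are known to express, had 7 of 12 members with UMIs and summed to 454 in tRNA-high and 295 in tRNA-low cells, a ratio of 1.47 (1.26 to 1.70) with overlapping cells. NEFM, the medium neurofilament chain, had 157 in tRNA-high and 81 in tRNA-low cells, a ratio of 1.85 that was 4.60 without the tRNA-low cell 7, 1.36 without cell 57 and 1.48 without cell 9. UCHL1, an abundant ubiquitin hydrolase of neurons, had 217 in tRNA-high and 193 in tRNA-low cells, a ratio of 1.07 (0.88 to 1.31). Whether a chamber held more than 1 cell was not tested.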

How the data were processed

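The authors deposited UMI counts, as whole numbers, for each gene in 47 single HEK293 cells, and no label records a normalization. Per the submitters' processing notes, the tools included cutadapt 1.2.1 and STAR 2.4.0a, with the builds hg19 and GRCh37. Not given in the sources used here are the annotation, how UMIs were collapsed, whether strand was used, how reads with several matches were treated and how cells were filtered. Of the 18651 endogenous rows 17819 had a UMI, and 78 spike-in rows were kept apart. A repeated header row (0.0602% of all values) was left out, and 0 columns lacked a sample. The 24 cells have 738718 (tRNA-high) and 703843 (tRNA-low) endogenous UMIs. The shares were summed UMIs over summed endogenous UMIs, and for single spike-in RNAs over summed spike-in UMIs. Their exact 95% intervals are for counting error only. The interval was tested on simulated counts in which all cells of a set had the same share of a gene. That test therefore says nothing about spread between cells. No p-values were computed, and correlations are Spearman's rho over cells. No doublet caller was run.

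The cells, the rows that chose them and the gene lists were picked with earlier results of these data known. Named genes were the 12 highest and 12 lowest nuclear ratios with an interval wholly past 1.5 or 1/1.5 among genes with at least 100 UMIs, every mitochondrial row with a UMI, the 5 highest rho, and in each list up to 5 members by UMIs or ratio. Others are marked as named after their values were seen. Tools were Python 3.11.15, numpy 2.4.6, pandas 2.3.3, scipy 1.17.1, R 4.3.3, and, for scaling alternatives only, edgeR 4.0.16 and DESeq2 1.42.0. Alternatives changed scaling, depth, the cells, the choosing rows, the minimum and the fold.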

Additional observations from a re-analysis of the deposited data

How the results depend on the processing

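No paired analysis was possible because the cells carry no shared replicate numbers and no test was made. Over the 15 alternatives run for it, the log2 ratio of the 19 other tRNAs lay between 1.83 and 2.67, and leaving out single cells gave 2.13 to 2.33. For the mitochondrial mRNAs (0.26) the only alternative that moved the value by more than the spread between cells was ranking cells by choosing-tRNA UMIs per spike-in UMI, at -0.051, a setting chosen after seeing the data that kept 11 of 12 tRNA-high and 10 of 12 tRNA-low cells. The number of measured genes higher by the fold (306) was 564 with medians of cell shares, 145 after thinning, 494 with 8 cells on each side, 1861, 8 and 4856 with a minimum of 20, 500 and 1 UMIs, and 74 at a fold of 2. The number of genes lower by the fold (290) was 464, 129, 470, 1534, 8, 4116 and 54 under those settings in that order, and 664 within label numbers up to 48. Genes wholly apart between the sets, 0 in each direction, were 2 higher within label numbers up to 48, 2 higher with 8 cells on each side, 1 higher with the ranking per spike-in UMI, and 1 lower within label numbers up to 48. ASNS turned to 0.20 when cells were chosen without MT-TP, and NEFM to -0.15 with 16 cells on each side (log2 ratios); the cause was not tested. Leaving out single cells gave 301 to 386 higher, 283 to 353 lower, 0 to 1 wholly apart and higher (1 without cell 17, 23 or 14), and 0 wholly apart and lower. In log2 ratios it gave 0.06 to 0.21 for the rRNAs, 0.22 to 0.30 for mitochondrial mRNAs, -0.06 to -0.03 for cytosolic ribosomal proteins, -0.03 to 0.00 for nuclear oxidative phosphorylation, -0.07 to 0.07 for G1/S, -0.16 to 0.12 for G2/M and -0.15 to 0.12 for histones. Other scalings shifted every gene by -0.04 to 0.04. Label numbers above 48 gave no value, since no tRNA-low cell has one. In tRNA-high cells a gene without a UMI has a share of up to 0.000406%.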
